A study of Mus musculus with 2 samples.

Results

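The GATA transcription factors and their FOG cofactors were described from the open chromatin at their genes in mouse megakaryocyte progenitors. The 8 genes were taken by name (Gata1, Gata2, Gata3, Gata4, Gata5, Gata6, Zfpm1 and Zfpm2) out of 21938 protein-coding genes of GENCODE M21 on mm10. Their loci, each defined as the gene body plus 50 kb on either side of the 5′ end, held 48 of the 80938 open regions of the study's conservative list. The assay was ATAC-seq, in which a transposase cuts accessible DNA and inserts sequencing adapters. The study had 1 group, adult male C57BL/6J mice of 5 to 6 weeks, with no transgene, treatment or control group in the labels, and 2 libraries of 50000 primary megakaryocyte progenitor cells each. Both libraries carried the same donor label, and no label said that they came from separate animals, so their difference may be technical. The label of replicate 1 named a HiSeq and a NextSeq instrument, and that of replicate 2 named none. No comparison between conditions was therefore possible, and the values below are descriptions with no test.

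GATA factors bind a short DNA word, GATA flanked by A or T and A or G, through a pair of zinc fingers. Gata2 acts in stem cells, early progenitors and mast cells, and Gata1 takes over at shared sites as cells become erythroid cells or megakaryocytes, an exchange known as the GATA switch. Gata3 is known for T cells and type 2 immunity, and Gata4, Gata5 and Gata6 for heart, gut and endoderm. The FOG proteins do not rely on DNA contacts of their own and act by binding the N-terminal zinc finger of a GATA factor. Zfpm1 encodes FOG-1, the partner of GATA1 that megakaryocytes require, and Zfpm2 encodes FOG-2, the partner of GATA4 in heart and gonad. In blood cells GATA1 also works in complexes with TAL1, an E-box-binding factor, which is why a GATA word a short distance from an E-box (CANNTG) is a known composite element.

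The sequences of 13 windows, read from GRCm38.p6 on the plus strand, are given here because they carry the strongest region of a locus, a composite element, most GATA words of a locus or the open Gata1 promoter. They are in lower case except for GATA words (GATA with A or T before it and A or G after it, on either strand) and the E-box of a composite. No sequence is shown for Gata6. The first 3 are from the Gata1 locus: a region 3.58 kb upstream of the blood cell start site, the strongest region other than a neighbour's promoter, 25.6 kb upstream of that start site, and the promoter itself.
Gata1, 3.58 kb upstream, chrX:7971416-7971566: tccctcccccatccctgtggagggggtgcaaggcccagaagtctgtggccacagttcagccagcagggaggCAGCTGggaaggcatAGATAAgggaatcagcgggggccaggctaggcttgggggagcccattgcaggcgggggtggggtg
Gata1, 25.6 kb upstream, chrX:7993426-7993576: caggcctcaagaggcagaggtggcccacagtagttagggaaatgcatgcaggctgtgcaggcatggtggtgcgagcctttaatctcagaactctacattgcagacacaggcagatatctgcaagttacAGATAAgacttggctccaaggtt
Gata1, promoter, chrX:7967924-7968074: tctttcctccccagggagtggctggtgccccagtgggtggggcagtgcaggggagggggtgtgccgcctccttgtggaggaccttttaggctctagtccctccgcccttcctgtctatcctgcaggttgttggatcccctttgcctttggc

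The next 3 are from the Gata2 locus. They hold an intronic composite element, the pair of GATA words 4.11 kb upstream of the 5′ end, and the strongest region of the locus, which has no GATA word.
Gata2, intron, chr6:88203128-88203278: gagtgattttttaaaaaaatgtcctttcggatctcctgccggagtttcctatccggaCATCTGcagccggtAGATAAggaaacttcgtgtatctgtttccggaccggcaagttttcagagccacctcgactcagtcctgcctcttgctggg
Gata2, 4.11 kb upstream, chr6:88189705-88189855: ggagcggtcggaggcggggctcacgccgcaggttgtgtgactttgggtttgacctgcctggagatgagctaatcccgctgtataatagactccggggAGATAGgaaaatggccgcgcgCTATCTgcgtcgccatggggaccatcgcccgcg
Gata2, 48.9 kb downstream of the 5′ end, chr6:88242701-88242851: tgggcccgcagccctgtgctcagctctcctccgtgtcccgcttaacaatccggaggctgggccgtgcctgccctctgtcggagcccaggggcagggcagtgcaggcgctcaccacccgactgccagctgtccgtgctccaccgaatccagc

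The Zfpm1 windows are the intronic stretch with 4 GATA words, the upstream composite element and the strongest region of the locus.
Zfpm1, intron, chr8:122309450-122309600: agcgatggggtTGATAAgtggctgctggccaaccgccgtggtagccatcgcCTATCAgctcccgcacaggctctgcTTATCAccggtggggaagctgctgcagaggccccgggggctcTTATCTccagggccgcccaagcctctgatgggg
Zfpm1, 8.02 kb upstream, chr8:122274090-122274150: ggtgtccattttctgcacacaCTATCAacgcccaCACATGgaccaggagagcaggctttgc
Zfpm1, 22.6 kb upstream, chr8:122259485-122259635: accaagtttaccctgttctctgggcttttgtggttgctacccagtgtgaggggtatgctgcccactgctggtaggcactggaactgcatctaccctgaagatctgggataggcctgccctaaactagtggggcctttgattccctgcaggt

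The remaining windows are the strongest regions of Gata3, Gata5 and Zfpm2 and the composite element inside the only region of Gata4.
Gata3, intron, chr2:9879622-9879772: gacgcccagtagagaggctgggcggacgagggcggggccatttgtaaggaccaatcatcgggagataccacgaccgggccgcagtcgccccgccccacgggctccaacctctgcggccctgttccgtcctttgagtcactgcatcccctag
Gata4, intron, chr14:63256161-63256221: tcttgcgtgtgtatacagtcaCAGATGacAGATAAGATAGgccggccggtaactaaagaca
Gata5, 12.6 kb upstream, chr2:180347226-180347376: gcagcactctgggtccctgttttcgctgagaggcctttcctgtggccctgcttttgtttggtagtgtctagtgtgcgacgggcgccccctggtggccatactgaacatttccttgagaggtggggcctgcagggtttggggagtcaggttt
Zfpm2, intron, chr15:41029842-41029992: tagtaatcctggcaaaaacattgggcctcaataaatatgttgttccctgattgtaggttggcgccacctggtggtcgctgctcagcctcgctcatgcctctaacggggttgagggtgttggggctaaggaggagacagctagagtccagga

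Signal here is the authors' value for each peak, and a region, made by merging overlapping peaks, carries the signal of its strongest summit. A promoter region is one with any base within 1 kb of a start site of a protein-coding transcript, and the others are called distal. Over all 80938 regions the median signal was 8.90, with quartiles at 6.68 and 11.9. In a population of cells, a region open in fewer cells and a region less open in each cell cannot be told apart.

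Promoter regions were listed for 5 of the 8 genes, beside 61.3% of all protein-coding genes. They were Gata1, Gata2, Gata3, Zfpm1 and Zfpm2. None was listed for Gata4, Gata5 or Gata6, the heart and endoderm members. The own lists of replicate 1 and replicate 2 each held promoter regions of Gata1, Gata3 and Zfpm1, 3 of the 8 genes, beside 58.2% and 57.3% of all genes. The wider replicated and pseudoreplicated lists of the series each held 7 of the 8, all but Gata5, beside 69.2% and 68.7% of all genes. Among the 13447 genes with a promoter region, whose median promoter signal was 11.2, the members ranked low. The signal of Gata3 was above that of 43.2% of these genes, that of Zfpm1 above 5.84%, Gata1 above 5.27%, Zfpm2 above 3.65% and Gata2 above 0.0446%.

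**Figure D1:**
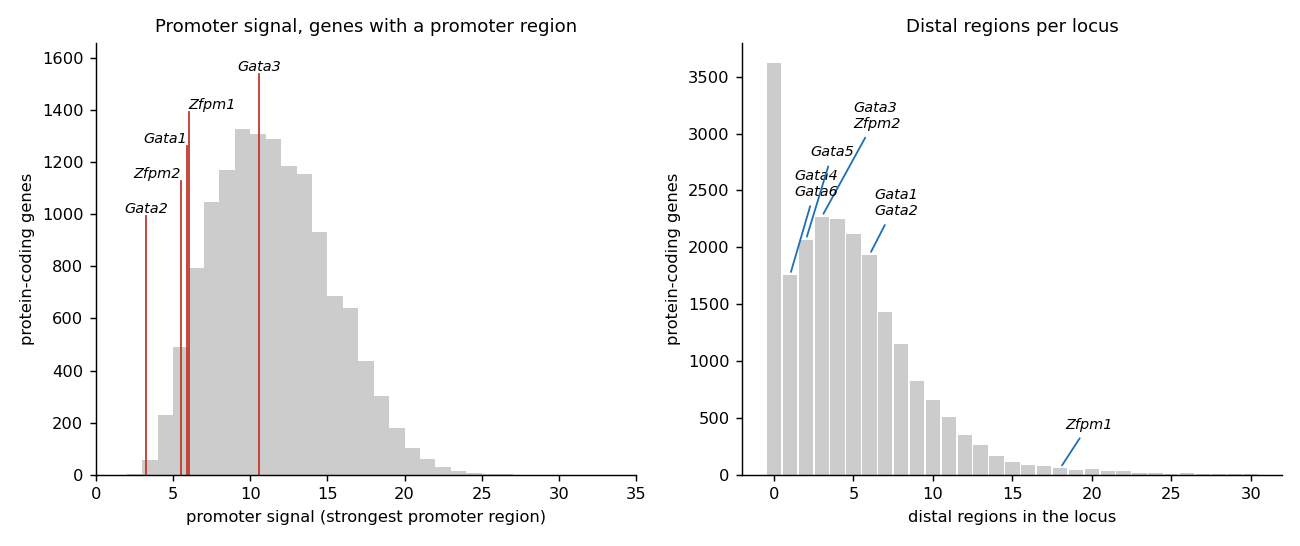
The left panel is a histogram of the strongest promoter signal of each protein-coding gene with a promoter region (x axis, signal; y axis, genes), with red lines at the 5 members that have one. The right panel is a histogram of distal regions per locus up to 30 (x axis, regions; y axis, genes), with each member named at its count. Gata1, Gata2, Zfpm1 and Zfpm2 lie in the low tail of promoter signal, at 3.24 to 6.01, and Zfpm1 lies in the high tail of distal regions, at 18.

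The Gata1 gene (ENSMUSG00000031162.14, minus strand) was open at a start site inside the annotated gene. Its 5′-most start site, which belongs to the transcript used in the testis, had no region in any list. The start site 10.2 kb downstream, from which blood cells transcribe the gene, had a promoter region at chrX:7967847-7968607 with a signal of 5.89, whose strongest summit lay 89 bp upstream of the start. The signal was 5.48 in replicate 1 and 5.94 in replicate 2, or 5.71 ± 0.327 (SD, n = 2). Both libraries listed this region, and its signal was below the median of 8.90 over all regions. Another start site, 13.9 kb downstream of the 5′ end, had a region of signal 3.11 only in the wider lists.

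Gata1's distal regions were stronger than its promoter. The region 3.58 kb upstream of the blood cell start site, at chrX:7970992-7971839, lies in an intron of the longer transcript and had a signal of 11.1, with 9.12 in replicate 1 and 12.3 in replicate 2. It lies at the position of the upstream enhancer that is known to drive Gata1 in blood cells. Its summit window holds the composite shown above, an E-box followed after 9 bases by a GATA word. A pair of regions farther upstream lies where another known Gata1 hypersensitive site has been mapped. The stronger of them, at chrX:7993096-7993745, lies 25.6 kb upstream of the blood cell start, and had a signal of 15.4, with 13.7 in replicate 1 and 14.6 in replicate 2. Its neighbour at chrX:7992781-7993040 had a signal of 12.5, with 10.02 in replicate 1 and 12.3 in replicate 2. All 3 were in both libraries' own lists and above the median of 8.75 over all regions outside promoters.

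The other Gata1 locus regions were nearer to neighbouring genes. The strongest of the locus was the promoter of Hdac6, which encodes a cytoplasmic deacetylase, at chrX:7947486-7948510, with a signal of 17.5 and with 16.6 and 16.2 in replicates 1 and 2. A pair of regions in an intron of Glod5, 39.3 and 37.8 kb upstream of the Gata1 5′ end, had signals of 8.90 and 10.2. The former was listed by replicate 1 alone at 8.17, and the latter by replicate 2 alone at 9.48. A region in coding sequence of Hdac6, at chrX:7936908-7937179, had a signal of 9.56 and was listed by replicate 1 alone at 8.43.

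**Figure D2:**
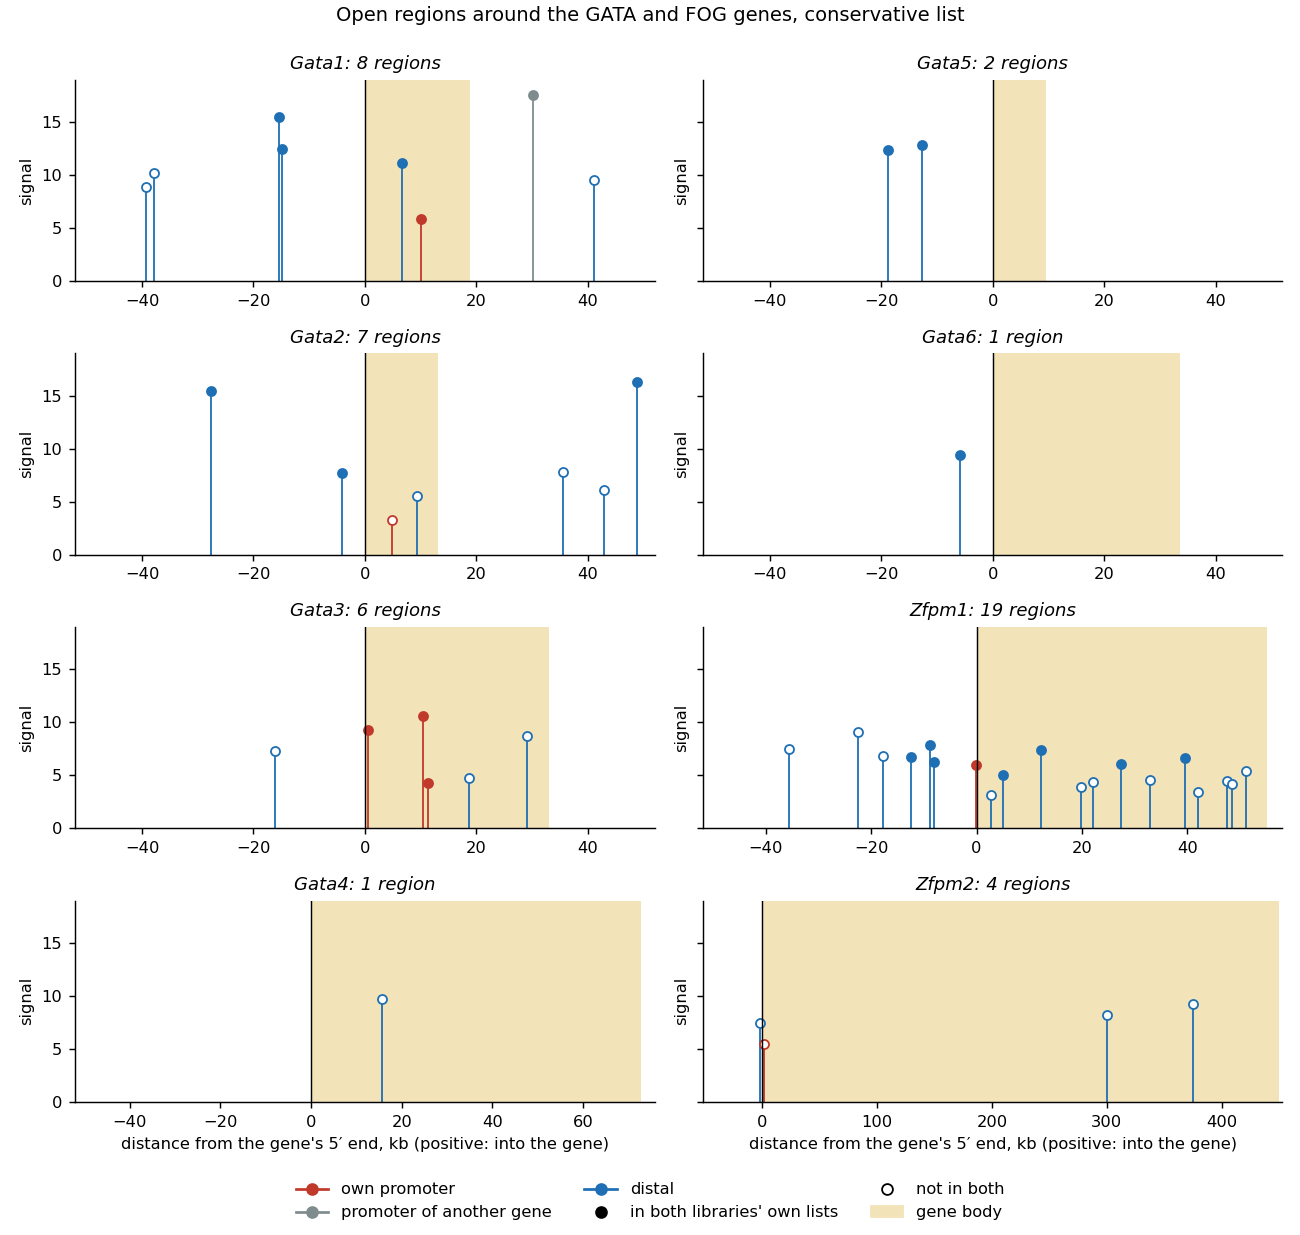
Each panel shows the open regions of a locus by distance of the strongest summit from the gene's 5′ end in kb (x axis, positive into the gene) and signal in the conservative list (y axis), coloured by class, with the gene body shaded. Filled points are in both libraries' own lists and open points are not. Gata1 has 8 regions, of which the strongest is the Hdac6 promoter, and Gata2 has 7. Some of these lie above 15, whereas the 19 regions at Zfpm1 stay at or below 9.14.

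Gata2 (ENSMUSG00000015053.14, plus strand) had the weakest promoter of the 5 by the strongest summit. By the mean of the summits within 1 kb of a start site it had 3.24, above Zfpm2 at 2.96. Its 5′-most start site, used by the transcript known from early blood progenitors, had no region within 1 kb in any list. A region at chr6:88198557-88199081, 326 bp downstream of the second start site, had a signal of 3.24, and only 0.633% of all regions had a lower one. Neither library's own thresholded list held it, nor did the series list thresholded by the irreproducible discovery rate (IDR), which has 80253 regions, fewer than the conservative list. In the libraries' pseudoreplicated lists, which are wider lists of the same libraries, its signal was 3.20 in replicate 1 and 3.26 in replicate 2.

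Distal regions with known roles at Gata2 were open at signals below the median of 8.75 over all regions outside promoters. The region 4.11 kb upstream of the 5′ end, at chr6:88189511-88190108 in an intron of the lincRNA Gm38708, had a signal of 7.71, with 7.63 in replicate 1 and 7.31 in replicate 2. It lies among the upstream GATA-bound sites where GATA1 is known to displace GATA2, and its window holds the 2 GATA words shown above. The intronic region at chr6:88202977-88203677, 9.31 kb downstream of the 5′ end, is at the known intronic enhancer of Gata2, whose E-box and GATA composite blood stem cells need. Its signal was 5.51, above that of 12.7% of all regions. Replicate 1 listed it at 5.30, and replicate 2 held it only in its pseudoreplicated list, at 5.31. The composite, an E-box followed after 8 bases by a GATA word, lay 9.30 kb downstream of the 5′ end.

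The strongest regions of the Gata2 locus lay far from the gene. The region at chr6:88242528-88243115, 48.9 kb downstream of the 5′ end in an intron of Dnajb8, had a signal of 16.3, with 13.7 in replicate 1 and 16.4 in replicate 2. The intergenic region at chr6:88166011-88166454, 27.6 kb upstream, had a signal of 15.5, with 13.1 in replicate 1 and 14.8 in replicate 2. Both were higher in replicate 2, and neither window holds a GATA word. The remaining pair, 35.5 and 42.9 kb downstream in introns of Dnajb8, had signals of 7.85 and 6.07. Replicate 1 alone listed the former, at 6.99, and neither listed the latter. Outside the 50 kb window, at the position of the far upstream enhancer known to drive Gata2 in progenitors, a region 76.9 kb upstream at chr6:88116324-88117511 had a signal of 6.96, with 7.28 in replicate 1 and 6.78 in replicate 2. It was named outside the rule given below. Of the other regions 50 to 100 kb upstream, those at 69.8 and 87.7 kb were stronger, at 10.4 and 7.62. Both libraries listed these, and the rest were weaker.

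Gata3 (ENSMUSG00000015619.10, minus strand), although it is best known from T cells, had the highest promoter signal of the 8 genes by its strongest summit. With the mean of all summits within 1 kb of a start site instead, it had 4.01, below Zfpm1 at 5.96 and Gata1 at 5.51. Of its 3 promoter regions, the strongest, at chr2:9879182-9879928, had a signal of 10.6, with 9.78 in replicate 1 and 10.5 in replicate 2. Its −log10 p of 188, again the authors' value, was above that of 95.5% of all regions. This region reaches within 1 kb of the downstream start site, but its strongest summit lies 1097 bp upstream of it. The region over that start site, at chr2:9878367-9878737, was weaker, at 4.30, with 3.92 and 4.44 in replicates 1 and 2.

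The region at the 5′-most Gata3 start site, at chr2:9888931-9889760, had a signal of 9.31, with 8.11 in replicate 1 and 9.46 in replicate 2. It also lies within 1 kb of the 5′ end of 9230102O04Rik, so it cannot be assigned to Gata3 alone. All 3 promoter regions were in both libraries' own lists. The 3 distal regions were each in the list of 1 library only. They were 16.2 kb upstream, at 7.30, and 18.7 and 29.1 kb downstream in introns, at 4.73 and 8.70.

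The heart and endoderm members had few regions. Gata4 (ENSMUSG00000021944.15) had 1, intronic at chr14:63255979-63256403, 15.6 kb downstream of the 5′ end, at 9.73, listed by replicate 2 alone at 9.17. The composite shown above, an E-box followed after 7 bases by a GATA word, which overlaps another GATA word before it, lies inside it but outside the window around its strongest summit. Gata5 (ENSMUSG00000015627.5) had 2 intergenic regions. Its region at chr2:180347141-180347478, 12.6 kb upstream, had a signal of 12.9, with 11.7 in replicate 1 and 11.4 in replicate 2. Its region 18.8 kb upstream, at chr2:180353345-180353750, had a signal of 12.4, with 11.8 and 11.7 in replicates 1 and 2.

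Neither Gata5 window holds a GATA word or an E-box. Gata6 (ENSMUSG00000005836.10) had 1 region, 5.83 kb upstream of its 5′ end in an intron of the noncoding transcript 1010001N08Rik, at 9.41, with 9.12 in replicate 1 and 7.0 in replicate 2. In the wider replicated list, weak promoter regions were listed for Gata4, at 2.80, and for Gata6, at 4.56, and none for Gata5.

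Zfpm1 (ENSMUSG00000049577.15, plus strand), the FOG-1 gene, stood apart from the other 7 genes by the number of its regions. Its locus held 18 distal regions, and 315 genes, Zfpm1 included, held at least as many, or 1.44% of all protein-coding genes, whose median was 4. Per 100 kb of locus it held 17.1, and 17 genes, Zfpm1 included, were at least as dense. Among the pathway genes described below, Fli1 had 23 distal regions, Trps1 and Vwf 22 each, Runx1 20 and Mta3 19. At Zfpm1, replicate 1's own list gave 12 distal regions and replicate 2's gave 11. The regions were weak as well as many, since 17 of the 18 were below the median signal of regions outside promoters, against 9 of the 22 distal regions of the other 7 genes. All 19 regions also lie in introns of Gm20388, an annotated protein-coding gene that overlaps Zfpm1.

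The Zfpm1 promoter region, at chr8:122281056-122282175, was 1120 bp wide with a signal of 6.01, and with 6.07 and 5.87 in replicates 1 and 2, or 5.97 ± 0.144 (SD, n = 2). It was above 17.6% of all regions by signal, 95.2% by width and 85.0% by −log10 p. The strongest distal region, 22.6 kb upstream at chr8:122259430-122259703, had a signal of 9.14 and was listed by replicate 2 alone at 9.68. The next, 8.79 kb upstream at chr8:122273208-122273492, had a signal of 7.90, with 7.19 in replicate 1 and 7.80 in replicate 2. The region 35.7 kb upstream followed, at 7.48, listed by replicate 1 alone at 7.82. These 3, all upstream, were the strongest distal regions of the locus.

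Inside the gene, the strongest region lay 12.2 kb downstream of the 5′ end, at chr8:122294186-122294618, at 7.43, with 7.06 in replicate 1 and 6.93 in replicate 2. The regions 17.7 and 12.5 kb upstream had signals of 6.80 and 6.72. The region 39.7 kb downstream, at chr8:122321312-122322041, had 6.66, with 6.08 and 6.89 in replicates 1 and 2, and the region 8.10 kb upstream, which holds the composite shown above with 7 bases between the words, had 6.27, with 5.78 and 6.34. That composite reaches past the window around the strongest summit. Of these 5 regions, only the one 17.7 kb upstream was not in both lists. The other 10 distal regions, all in introns of Zfpm1, ranged from 3.20 to 6.08. Among them, the region at chr8:122309062-122309709, named after its sequence had been seen, had 6.08, with 5.73 and 6.28 in replicates 1 and 2, and its window holds the 4 GATA words.

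Zfpm2 (ENSMUSG00000022306.9, plus strand), the FOG-2 gene, is 450 kb long and had 4 regions. Its promoter region, at chr15:40655417-40656319, had a signal of 5.50 and was in neither library's own list. In the pseudoreplicated lists its signal was 5.43 in replicate 1 and 4.94 in replicate 2. Its strongest summit lay 1062 bp from the start site, so it counts as a promoter region only because a part of it lies nearer. The distal regions, 2.37 kb upstream and 300 and 375 kb into the gene, had signals of 7.46, 8.24 and 9.23, and each was in the list of 1 library only.

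Of the 48 locus regions, 22 were in both libraries' own lists, a share of 45.8% (Wilson 95% interval 32.6 to 59.7%), beside 63.9% of all regions. Replicate 1 alone listed 13, replicate 2 alone 7 and neither 6. In all, replicate 1 listed 35, beside 73.4% of all regions, and replicate 2 listed 29, beside 71.6%. All 48 were in both libraries' pseudoreplicated lists, which are wider, at 113021 and 113976 regions. The share of all regions in both of these is not given here, so this count is not shown to be particular to the loci. Signal moved with this share. Of all regions below the median signal 38.2% were in both lists, and of those at or above it 89.3%. Of the locus regions, 31 were below that median, with 11 in both lists (35.5%), and 17 were at or above it, with 11 in both (64.7%). The part of signal in the lower share of the locus regions was not tested.

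Where both libraries listed a region, their signals were close. The log2 ratio of replicate 2 to replicate 1 had a median of 0.12 over the 22 regions and ran from −0.38, at Gata6, to 0.42, at the Gata1 region 3.58 kb upstream of the blood cell start. Over all 51738 such regions the median was 0.08 with an SD of 0.18. Replicate 2 was higher at 15 of the 22 and replicate 1 at 7.

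**Figure D3:**
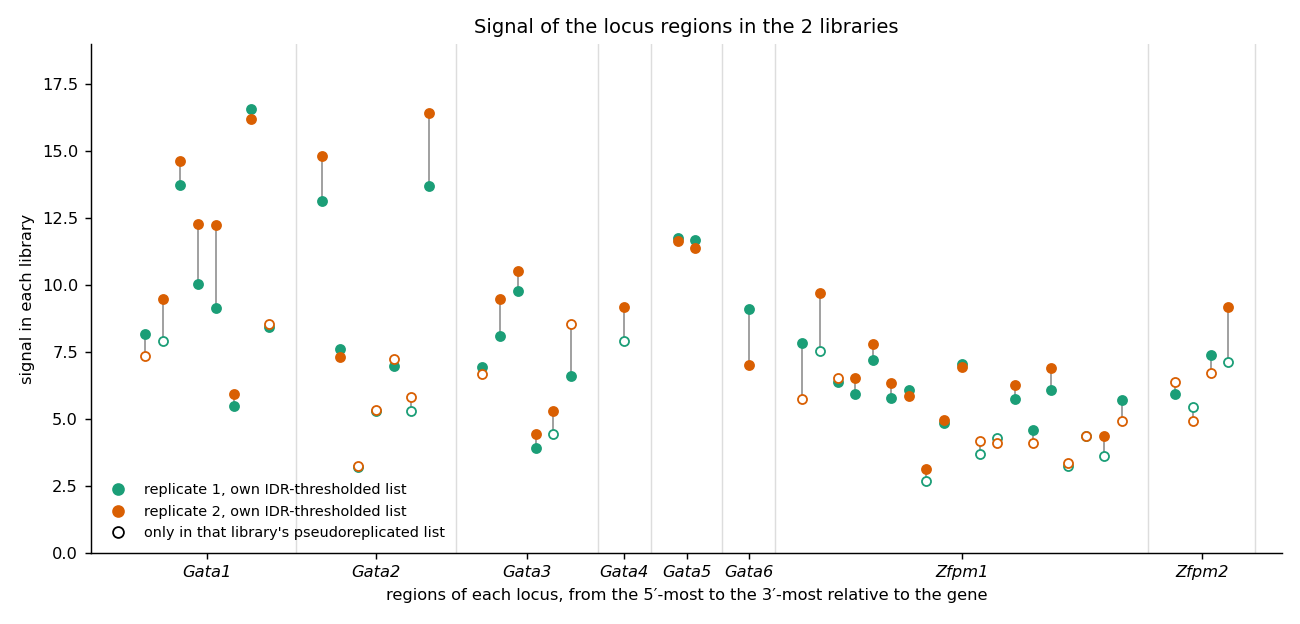
Each vertical pair is a locus region (x axis, in order along each gene), with its signal in replicate 1 (green) and replicate 2 (orange) on the y axis. Filled points are from a library's own thresholded list and open points from its pseudoreplicated list only. The pairs are close except for a few, among them the Gata1 region at 9.12 and 12.3, and Zfpm1's regions lie mostly below 8.

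GATA words were about as common at the loci as elsewhere. In the 151 bp around the strongest summit, 14 of the 48 regions held one, or 29.2% (Wilson 95% interval 18.2 to 43.2%), beside 26.4% of all regions and 29.9% of those outside promoters. Zfpm1 had 8 of 19, or 42.1% (23.1 to 63.7%), an interval that holds both background shares. The Gata1, Gata2 and Gata3 loci had 2 each, and the loci of Gata4, Gata5, Gata6 and Zfpm2 had none. The composite was in 2 windows, the Gata1 and Gata2 regions shown above, or 4.17% (1.15 to 14.0%) beside 1.68% of all regions. The composites of Gata4 and Zfpm1 were found by searching whole regions and are not counted here. No share over all whole regions is given beside them.

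ETS words (CCGGAA, or AGGAA followed by A or G), bound by a family that includes the megakaryocyte factor FLI1, were in 14 of 48 windows, or 29.2% (18.2 to 43.2%), beside 49.4% of all regions. Zfpm1 had 2 of 19, or 10.5% (2.94 to 31.4%). E-boxes were in 29 of 48 windows, or 60.4% (46.3 to 73.0%), beside 57.1%. The KLF word (CACCC) was in 20, or 41.7% (28.8 to 55.7%), beside 37.8%. The RUNX word (TGTGGT) was in 8, or 16.7% (8.70 to 29.6%), beside 19.8%, and the AP-1 and NFE2 word (TGACTCA or its reverse complement TGAGTCA) in 2, or 4.17% (1.15 to 14.0%), beside 5.66%. Over the 48 windows together, ETS was thus the only word whose interval left out the share over all regions. For ETS words by locus, only the Zfpm1 interval did so. For other words, locus intervals that left it out were the composite at Gata1 (1 of 8 windows) and Gata2 (1 of 7). The AP-1 and NFE2 word at Gata3 (2 of 6) and E-boxes at Gata4 to Gata6 together (0 of 4) did so too. ETS words were in 25% of the Gata1 windows and 42.9% of the Gata2 windows. They were in 50% at Gata3, at Gata4 to Gata6 together, and at Zfpm2. The locus windows had a median GC content of 58.3%, against 51.7% over all regions, and the part of base composition in these shares was not tested. All words were searched on both strands, and a GATA word in a composite counts in both searches.

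**Figure D4:**
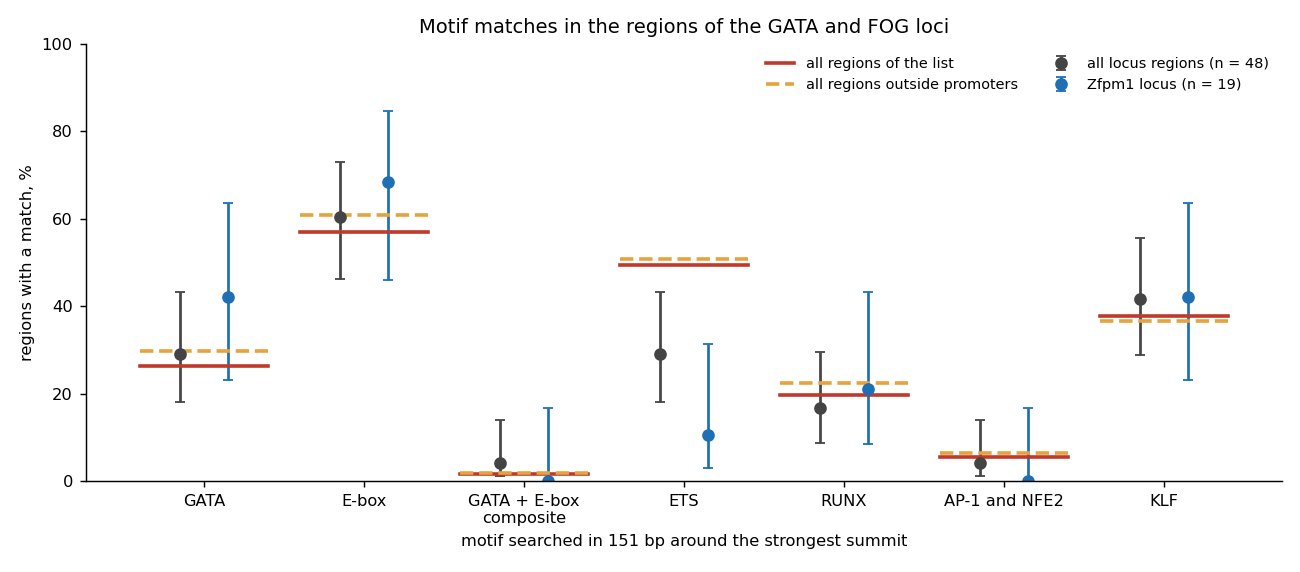
Points are the percent of windows with each word (y axis) for the 48 locus regions and for the 19 Zfpm1 regions, with Wilson 95% intervals that cover counting error only, and lines are the shares over all regions and over all regions outside promoters. The ETS interval of both sets lies below the lines, and the GATA interval of both sets spans them.

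Genes of the GATA pathway, taken from 9 lists, had promoter regions in 51 of the 77 genes found in the annotation, or 66.2%, beside the 61.3% of all protein-coding genes given above. All 11 genes of the list labelled DNA-binding partners, of which Lmo2 and Ldb1 do not themselves bind DNA, had one. Their median promoter signal was 7.93, below the 11.2 of all genes with a promoter region. The highest were Tcf3, an E-box partner of TAL1, at 11.8, and Spi1, the PU.1 gene and a known antagonist of GATA1, at 10.4. Of the NuRD and CtBP corepressors, which FOG-1 recruits, 14 of 15 had one. The highest were Gatad2b at 14.4 and Hdac1, a histone deacetylase, at 13.9, and Chd3, a remodelling ATPase, had none. All 5 coactivators had one, the highest being Med1, a Mediator subunit, at 16.8 and the acetyltransferase gene Crebbp at 14.5. Of 3 other genes with GATA-type zinc fingers, Trps1 had 12.4 and Gatad1 11.8, and Zglp1 had no promoter region.

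The targets were open less evenly. Of 13 megakaryocyte targets 7 had a promoter region. Gp1ba, a subunit of the platelet von Willebrand factor receptor, had 13.9 and Nfe2, a factor of platelet formation, 10.4, whereas Gp1bb and Gp6, both platelet receptor genes, had none. Of 7 erythroid targets 5 had one, with Epor (the erythropoietin receptor) at 11.6, and none for Alas2 (haem synthesis) and Slc4a1 (the anion exchanger of red cells). Of 5 mast cell targets 2 had one, Kit at 9.75 and Hdc at 7.90, with none for Cpa3 and Fcer1a in the conservative list.

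Of 8 T cell and type 2 partners of Gata3, 3 had a promoter region, the highest being Maf at 10.3 and Bcl11b at 8.64, with none for Tcf7 and Il5. Of 10 heart and endoderm partners of Gata4 to Gata6, 2 had one, Mef2c, which blood cells also use, at 12.2 and Sox17 at 7.06, with none for Nkx2-5 and Tbx5. These 2 lists, and those of megakaryocyte and mast cell targets, held smaller shares than the 61.3% of all genes. In the replicated list the direction turned for megakaryocyte targets, with 10 of 13, and mast cell targets, with 4 of 5, beside 69.2% of all genes.

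**Figure D5:**
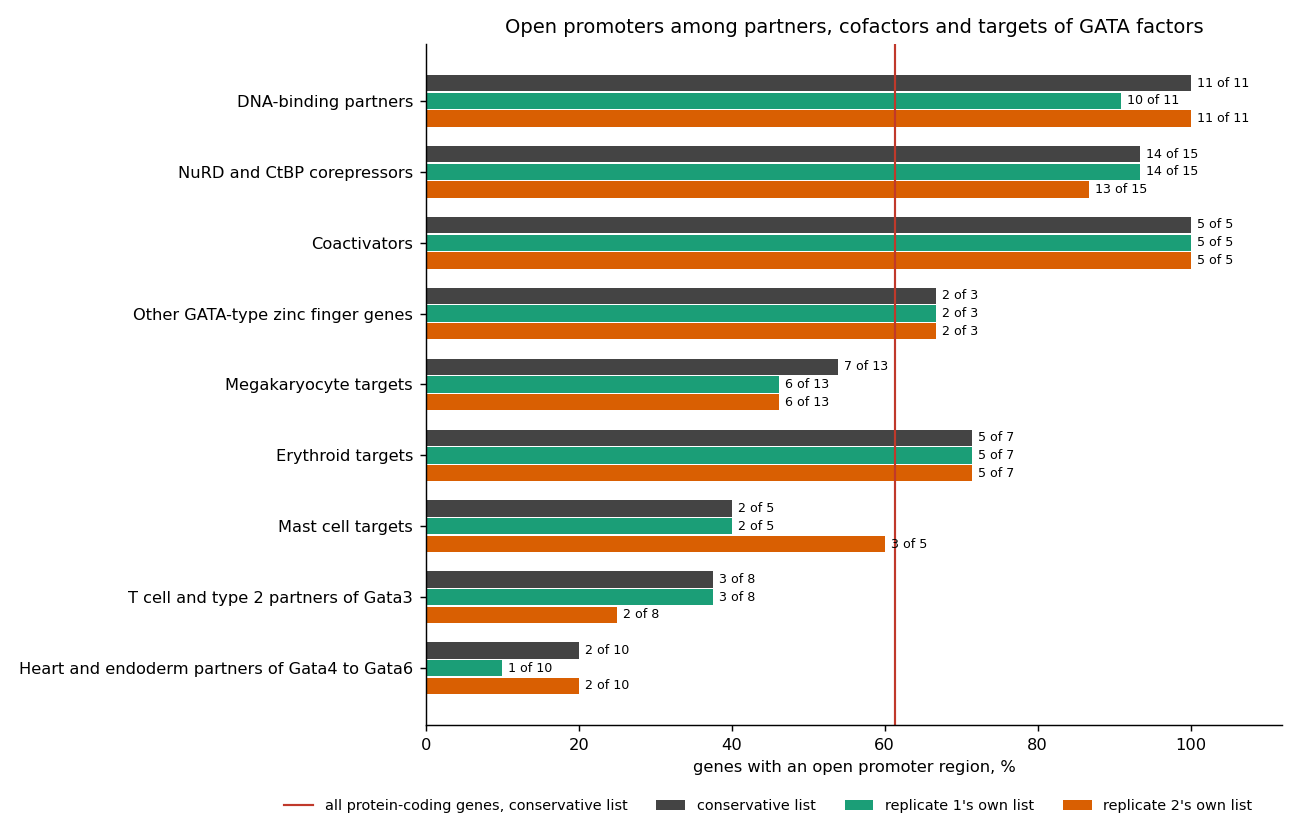
Bars give the percent of each list's genes with a promoter region (x axis) in the conservative list and in each replicate's own list, with counts at their ends, and the red line is the 61.3% of all protein-coding genes. The DNA-binding partners, corepressors and coactivators lie to the right of the line, and the heart and endoderm list, at 2 of 10, lies farthest to the left.

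The cell label was read against marker lists at the same promoters. Megakaryocyte markers had a promoter region in 7 of 12, beside the 61.3% of all genes. They were Itga2b, Itgb3, Gp1ba, Gp5, Gp9, Pf4 and Nfe2, at 4.57 to 13.9. Among those without one in this list were Vwf and Ppbp. In the replicated list 9 of the 12 had one, beside 69.2% of all genes. The own lists of replicates 1 and 2 held 5 and 6 of the 12, beside 58.2% and 57.3% of all genes. Gp9 was in neither of these, and Itgb3 in that of replicate 2 alone. In the conservative list, granulocyte markers had a promoter region in 4 of 5 and erythroid in 4 of 6. The mast cell list had one in 1 of 4, and that gene was Mcpt8, at 9.56, which replicate 2's own list did not hold. Replicate 2's own list held the promoter of Cpa3 instead, at 6.44, and the replicated list held 3 of the 4. In the conservative list, T cell markers had one in 1 of 3 (Cd3d, at 16.0), endothelial in 1 of 3, B cell in 0 of 2, and heart and endoderm in 1 of 6. The part of other cell types in the values above was not tested.

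By promoter signal and number of distal regions in each of the 2 libraries, the 3 genes most like Gata1 among 12282 were Slc7a7, Ctf1 and Oas3, and the 3 most like Zfpm1 were Rbpj, Ndst1 and Prkcd. The measure was the Euclidean distance over 4 values on a log2 scale, each divided by its SD over genes. Gata2 was left out because neither library listed its promoter.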

How the data were processed

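ATAC-seq peak lists of 2 libraries of 1 group were used. The authors deposited narrowPeak-style lists on mm10, per the labels, as thresholded by the irreproducible discovery rate (IDR) or replicated over both libraries, for each library and for the series; the labels and headers name no aligner or peak caller (not given in the sources used here). The signal and the −log10 p of each peak are the authors' deposited values; no scaling between libraries is stated, so a mean, an SD or a ratio over the 2 libraries also holds any difference in their scale. Read depth is unknown from these files. The label's code CFU-M was not interpreted.

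Overlapping peaks were merged into regions (Python 3.11.15, numpy 2.4.6). Regions were assigned by strongest summit to loci, and to promoters by any base within 1 kb of a start site of a protein-coding GENCODE M21 transcript. A region counted as shared where 50% of either region was covered. Words were searched within 75 bp of the strongest summit in GRCm38.p6, whose chromosome lengths match mm10 (pysam 0.24.0). Wilson 95% intervals (scipy 1.17.1) cover counting error only. The steps were tested on simulated regions and sequence.

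The genes, lists and motifs were chosen with earlier results of these data known. Named were all members, their promoter regions, all distal regions where a locus held 12 or fewer and otherwise the 8 strongest, and of each pathway list the 2 highest promoters and up to 2 genes without one, in list order. A gene that this rule names among the erythroid targets is not reported here. Hbb-b1 was not found in the annotation and not used here. The Hdac6 promoter window overlaps a transcribed leader and its sequence is not shown. The promoter rule by summit was added after seeing the data.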

Additional observations from a re-analysis of the deposited data

How the results depend on the processing

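No paired analysis was possible because there is 1 group and no test. Of the alternatives to the 5 summary values, 31 stayed within the bounds set and 14 moved. The 8 genes' open promoters numbered 3 without replicate 1 and 3 without replicate 2, when Gata2 and Zfpm2 dropped out, 4 when the strongest summit had to lie within 1 kb (an alternative chosen after seeing the data), and 1, Gata3, among the stronger 50% of regions. Locus regions numbered 31 to 37 with a library left out, 85 in the replicated list, 85 in the pseudoreplicated list, 97 with a 100 kb window and 17 among the stronger 50%. The share in both libraries was 25.9% in the replicated and 25.9% in the pseudoreplicated list, 64.7% among the stronger 50%, and 100% when the pseudoreplicated list of each library was asked instead. Beside the 25.9% and the 100%, no share over all regions is given here. The share with a GATA word was 11.8% among the stronger 50% (32.3% to 32.4% with a library left out), where the pathway lists had 27 open promoters (48 to 49 with a library left out). For GATA words and open promoters, the shares over all regions or genes in the stronger 50% are not given here. Those lower values are therefore not shown to be particular to the 8 genes or the pathway lists. Fewer regions, by construction, remain above a higher threshold, and for the other moves the cause was not tested. Single members' values moved in 30 cases and stayed in 29; without replicate 1 the count of distal regions was 11 for Zfpm1, 3 for Gata2, 1 for Gata3 and 1 for Zfpm2, and Gata4 had 2 without replicate 1 and 0 without replicate 2. Depth is unknown, so a promoter without a region was not listed at these thresholds, and is not shown to be closed.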
